A study of Rattus norvegicus with 6 samples.

Results

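Neurotrophins and the GDNF family of ligands are target-derived trophic factors, and 8 genes that encode such ligands or their receptors were followed in the L1-L2 dorsal root ganglion (DRG) neurons of spontaneously hypertensive rats (SHRs). The members were the rows of the gene count table named Bdnf and Gdnf for the ligands and Ntrk2, Ntrk3, Ngfr, Ret, Gfra2 and Gfra3 for the receptors, 8 of 25689 genes in all. Each name matched 1 row, and all 8 genes passed the filter on low counts that left 14919 genes to test. The PRATA group held 3 samples of wild type SHRs whose perirenal adipose tissue had been surgically ablated on both sides, and the sham group held 3 samples of wild type SHRs with a sham operation. The labels give an age of 6 to 8 weeks for both groups, and the study's methods place the collection 4 weeks after surgery. The methods also give the SHRs an older age at purchase than the labels do, so the age is uncertain. The L1-L2 ganglia were digested with enzymes, and the neurons were parted from glia by their different speed of adhesion to a culture dish, so each sample is a bulk preparation without a sort for single cell types. Only the hypertensive strain was sequenced, so no value here compares hypertensive with normotensive rats.

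BDNF binds the receptor TrkB, the product of Ntrk2, and NT-3 binds TrkC, the product of Ntrk3, while every neurotrophin also binds p75NTR, the product of Ngfr. GDNF family ligands bind a GFRα co-receptor on the cell surface, and the complex engages the receptor tyrosine kinase RET: GFRα2 prefers neurturin and GFRα3 prefers artemin. In adult ganglia these receptors divide the sensory neurons into classes, with TrkC on many proprioceptors, TrkB on some mechanoreceptors and RET on most non-peptidergic nociceptors. BDNF is made by a share of the peptidergic neurons, satellite glia carry a TrkB form without the kinase domain, and GDNF is made by Schwann cells and target tissues.

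The 6 libraries held between 5892967 counts in sham replicate 2 and 15226952 in sham replicate 1, so that 3 counts corresponded to 0.207 to 0.468 CPM, counts scaled to a common library size with TMM factors. PRATA replicate 3 and sham replicate 1 stood apart from the other 4 libraries in 7SL RNA, the RNA of the signal recognition particle: 98.9% to 99.5% of the reads on a pair of near-identical 7SL copies lay on 1 copy there, against 47.3% to 49.3% in the other libraries. Summed over 15 sensory neuron markers, the level was 12519 to 17765 CPM after PRATA and 8336 to 12587 CPM after sham, and none of the 15 was at 0 in any sample. Markers of other cell types were present too: the summed level of 9 satellite glia markers was 3124 to 5837 CPM after PRATA and 4118 to 8217 CPM after sham. In bulk RNA, fewer cells of a type and less RNA per cell cannot be told apart.

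The promoters of the 2 ligand genes are shown because these genes had the smallest p-values among the members and differed in opposite directions. Promoters of 4 of the 8 members were in the RefSeq table used (rat assembly GRCr8), with 6 starts for Bdnf and 1 each for Gdnf, Ret and Gfra3. The 250 bases before the Gdnf start are chr2:58621077-58621326 on the plus strand, and those before the fourth of the Bdnf starts are chr3:116637608-116637857 on the plus strand. Capitals mark matches to the short CRE site (TGACG, or CGTCA on the other strand), part of the element that CREB binds, and to the TATA box (TATAAA, or TTTATA).
Gdnf: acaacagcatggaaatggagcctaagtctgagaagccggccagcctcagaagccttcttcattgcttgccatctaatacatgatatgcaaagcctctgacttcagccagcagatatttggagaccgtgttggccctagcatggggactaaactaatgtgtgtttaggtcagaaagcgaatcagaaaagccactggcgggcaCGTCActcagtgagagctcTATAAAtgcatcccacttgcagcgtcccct
Bdnf, the fourth start: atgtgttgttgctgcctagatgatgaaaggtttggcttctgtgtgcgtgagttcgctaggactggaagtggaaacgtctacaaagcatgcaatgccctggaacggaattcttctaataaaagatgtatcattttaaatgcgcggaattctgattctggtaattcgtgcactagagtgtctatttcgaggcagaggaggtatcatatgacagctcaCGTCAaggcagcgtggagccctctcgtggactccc
The short CRE site lay 49 bases before the Gdnf start and 35 bases before this Bdnf start, and the Gdnf window also held a TATA box 30 bases before the start. Among 33469 promoter windows of the same length, 18.22% held the short CRE site and 12.93% held the TATA box letters on either strand. The other 5 Bdnf windows and the Ret and Gfra3 windows had no short CRE site, and 1 other Bdnf window held TTTATA at 250 bases before the start. The full CRE (TGACGTCA), which contains the short site, and the AP-1 site (TGACTCA, or TGAGTCA) were in no member window, against 1.59% and 4.05% of all windows. Counts per gene do not separate the Bdnf starts, so the level measured below cannot be assigned to any of them.

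Comparing PRATA with sham asks how trophic signalling genes differed in these neurons after removal of a fat depot whose sensory nerves reach the L1-L2 ganglia. By the quasi-likelihood test of edgeR, Benjamini-Hochberg adjusted over all genes tested, no member had an adjusted p under 0.05, and neither did any other gene (0%). At an unadjusted p under 0.05, 6 of the 8 members differed, against 18.3% of all genes tested. Of these, Bdnf, Ntrk3, Ngfr and Gfra3 were higher after PRATA (8.19% of all genes were higher by this rule), and Gdnf and Ntrk2 were lower (10.1%). The same 6 members had groups of samples that did not overlap, against 22.8% of all genes tested (11.6% higher and 11.2% lower). Gdnf and Ntrk2 also had an absolute log2 fold change over 1, which with the unadjusted p held for 4.4% of all genes, 1.17% higher and 3.23% lower. By sign alone, 6 members were higher and 2 lower, against 52% and 48% of all genes. The median log2 fold change of the 8 members was 0.58, beside 0.02 over all genes tested. DESeq2 put 728 genes under an adjusted p of 0.05, among them Gdnf, Bdnf, Ntrk2 and Ngfr, and limma voom with sample quality weights put 1173 there, including the same 4 members. limma-trend put none there.

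**Figure D1:**
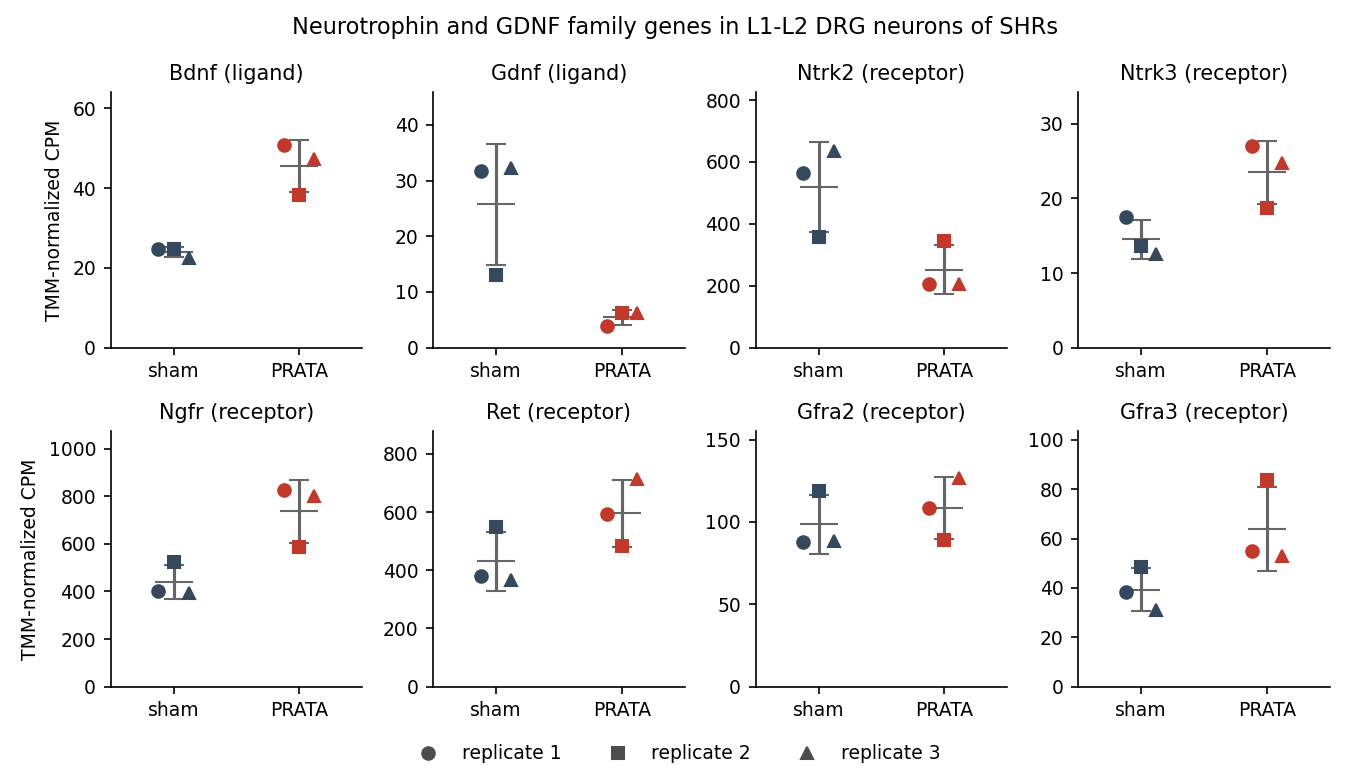
Level of each member in TMM-normalized CPM (vertical axis, from 0) in the 3 sham and 3 PRATA samples (horizontal axis), with the marker shape giving the replicate and the bars giving mean ± SD. Bdnf, Ntrk3, Ngfr and Gfra3 lie higher and Gdnf and Ntrk2 lower in all 3 PRATA samples than in any sham sample, while Ret and Gfra2 overlap.

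Of the ligands, Bdnf was higher and Gdnf lower after PRATA. The level of Bdnf (ENSRNOG00000047466), which encodes the ligand of TrkB, was 50.9, 38.3 and 47.3 CPM in PRATA replicates 1, 2 and 3 and 24.7, 24.7 and 22.5 CPM in sham replicates 1, 2 and 3. The sham samples lay close together, and each PRATA sample was above all of them. The means were 45.5 ± 6.46 CPM after PRATA and 23.9 ± 1.26 CPM after sham (SD, n = 3), a 1.90-fold difference. In edgeR the log2 fold change was 0.93 (SE 0.18, 95% interval 0.52 to 1.33) (unadjusted p = 0.000716, adjusted p = 0.156).

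Gdnf (ENSRNOG00000012819), the ligand that gives its family the name, was read at 30, 78 and 79 counts in the PRATA libraries and at 460, 84 and 341 counts in the sham libraries. Scaled for depth, its level was 3.87, 6.21 and 6.25 CPM after PRATA and 31.8, 13.1 and 32.2 CPM after sham. The lowest sham sample, replicate 2, came from the shallowest library and still lay above every PRATA sample. The means of 5.44 ± 1.36 and 25.7 ± 10.9 CPM (SD, n = 3) corresponded in edgeR to a log2 fold change of -2.23 (SE 0.38, 95% interval -3.10 to -1.36), or 4.70-fold lower after PRATA. The p was 0.000344 unadjusted and 0.156 adjusted. Gdnf had the widest spread between sham samples of all members, with a coefficient of variation of 42.4%. Without sham replicate 2 the Gdnf log2 fold change was -2.54, with an edgeR adjusted p of 0.0260. That of Bdnf was 0.95, with an edgeR adjusted p of 0.0444, so the adjusted calls of both ligands turned on that library. This was not particular to the ligands: 721 of 15438 genes tested passed without that library, against 0 of 14919 with it.

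The neurotrophin receptors did not differ in 1 direction. Ntrk2 (ENSRNOG00000018839), the TrkB gene, was at 207, 346 and 205 CPM after PRATA and 565, 357 and 635 CPM after sham. Replicates 2 of the 2 groups nearly met, at 346 and 357 CPM, while the other samples were far apart. The log2 fold change was -1.04 in edgeR (SE 0.30, 95% interval -1.74 to -0.34), or 2.06-fold lower after PRATA (unadjusted p = 0.00894, adjusted p = 0.175). The counts do not separate the kinase form of TrkB from the form without the kinase.

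Ntrk3 (ENSRNOG00000018674), the TrkC gene, was at 27, 18.7 and 24.8 CPM after PRATA and 17.5, 13.6 and 12.6 CPM after sham. All PRATA samples were above all sham samples, by a margin of about 1 CPM between PRATA replicate 2 and sham replicate 1. The edgeR log2 fold change was 0.69 (SE 0.22, 95% interval 0.18 to 1.19) (unadjusted p = 0.0143, adjusted p = 0.192). Its unadjusted p was 0.0690 without PRATA replicate 1 and 0.0529 without sham replicate 3.

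Ngfr (ENSRNOG00000005392), which encodes p75NTR, was at 825, 586 and 803 CPM after PRATA and 403, 523 and 393 CPM after sham. Again replicates 2 of both groups were nearest to each other and the groups did not overlap. The means were 738 ± 132 and 439.8 ± 72.0 CPM (SD, n = 3), and the edgeR log2 fold change was 0.75 (SE 0.23, 95% interval 0.22 to 1.27) (unadjusted p = 0.0114, adjusted p = 0.182). Without PRATA replicate 1 the unadjusted p was 0.0502. Within a sample, the number of Ngfr counts per Ntrk2 count does not depend on scaling to depth: it was 3.99, 1.69 and 3.91 after PRATA and 0.714, 1.47 and 0.619 after sham. Every PRATA sample had a higher ratio than every sham sample, and replicates 2 were again the nearest. As both genes separated the groups in opposite directions, this ratio could not overlap and is no further result. Ntrk2 counts per Ntrk3 count were 7.67, 18.5 and 8.28 after PRATA and 32.3, 26.3 and 50.5 after sham, without overlap for the same reason.

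Among the receptors for GDNF family ligands, Gfra3 was higher after PRATA, whereas the groups overlapped for Ret and Gfra2. Gfra3 (ENSRNOG00000020309), the artemin co-receptor, was at 54.9, 83.7 and 53.1 CPM after PRATA and 38.3, 48.4 and 31.0 CPM after sham. The highest value was that of PRATA replicate 2, unlike in Ngfr and Ntrk3, where this sample was the lowest of its group. The edgeR log2 fold change was 0.71 (SE 0.25, 95% interval 0.14 to 1.28) (unadjusted p = 0.0212, adjusted p = 0.216). Without PRATA replicate 2 the log2 fold change was 0.46, with an unadjusted p of 0.0873, and the unadjusted p was 0.0576 without sham replicate 1 and 0.0760 without sham replicate 3.

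Ret (ENSRNOG00000014751), the signalling receptor shared by the family, was at 593, 483 and 713 CPM after PRATA and 379, 548 and 365 CPM after sham. Sham replicate 2 was above PRATA replicate 2, and the edgeR log2 fold change of 0.47 (SE 0.25) had a 95% interval from -0.10 to 1.04 (unadjusted p = 0.0948, adjusted p = 0.344). Gfra2 (ENSRNOG00000014010), the neurturin co-receptor, was at 109, 89.3 and 127 CPM after PRATA and 87.9, 119 and 88.5 CPM after sham. Its log2 fold change of 0.14 (SE 0.20) had a 95% interval from -0.33 to 0.60 (unadjusted p = 0.516, edgeR adjusted p = 0.749), an interval that holds differences in both directions.

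Although each overlapped alone, Ret and Gfra2 gave a ratio whose groups did not overlap. The share of other gene pairs of which this holds was not counted. In likeness of profile, described below, Ret ranked 1342 among 13904 protein-coding genes for Gfra2. Ret counts per Gfra2 count were 5.46, 5.41 and 5.62 after PRATA and 4.32, 4.61 and 4.13 after sham. Gfra3 counts per Gfra2 count were 0.505, 0.937 and 0.418 after PRATA and 0.436, 0.406 and 0.350 after sham, which overlapped. Gdnf counts per Ret count were 0.00653, 0.0129 and 0.00876 after PRATA and 0.0838, 0.0239 and 0.0882 after sham. Each PRATA value of this ligand to receptor ratio was below each sham value. Bdnf counts per Ntrk2 count were 0.246, 0.111 and 0.231 after PRATA and 0.0437, 0.0691 and 0.0354 after sham. Bdnf and Ntrk2 separated the groups in opposite directions, so this ratio could not overlap. These ratios are descriptions over 3 samples a group, chosen with the members' values known. By the exact two-sided permutation test of the group means of log2 CPM, the p was 0.1 for the 6 members whose groups did not overlap, the smallest that 3 samples against 3 can give, 0.2 for Ret and 0.5 for Gfra2.

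The members differed alongside the markers of cell types. All 15 sensory neuron markers had a positive log2 fold change, 4 of them at an unadjusted p under 0.05, and their sum was higher after PRATA by 0.60 on the log2 scale. The groups overlapped in this sum, at 12519 CPM in PRATA replicate 2 and 12587 CPM in sham replicate 2. Over all genes tested, 52% were higher by sign and 8.19% at that p, and 48% and 10.1% were lower. All 8 satellite glia markers tested had a negative log2 fold change, 1 of them at an unadjusted p under 0.05, and the sum of 9 was lower by 0.62, most of it Apoe, which other cell types also express. The sums of the glial markers were 3646, 5837 and 3124 CPM after PRATA and 7071, 4118 and 8217 CPM after sham, so the groups overlapped through both replicates 2. The 12 Schwann cell markers summed to 1124 to 2156 CPM after PRATA and 1225 to 1791 CPM after sham, and these markers differed in both directions: 2 were higher and 1 lower at an unadjusted p under 0.05. Sox10, a transcription factor of Schwann cells and satellite glia, was at 59.9, 88.4 and 42.0 CPM after PRATA and 214, 109 and 267 CPM after sham, a log2 fold change of -1.63 without overlap. The myelin genes Prx and Ncmap were higher without overlap, at 1.39 and 2.44 on the log2 scale, Ncmap from 101 counts over the 6 libraries. These Schwann cell genes were named after their values were seen. Fibroblast markers (8 of 10 matched) summed to 421 to 2140 and 1086 to 2166 CPM, endothelial and mural markers (9 of 10) to 108 to 188 and 73.0 to 201 CPM, and 10 macrophage markers to 29.9 to 99.2 and 35.9 to 82.8 CPM. No marker was at 0 in all 6 samples, and 1 macrophage marker was at 0 in some. The part of cell composition in the members' differences was not tested.

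Set against these sums, the members differed among themselves. Per 1000 CPM of satellite glia markers, Ntrk2 was at 56.7, 59.2 and 65.6 after PRATA and 79.9, 86.7 and 77.3 after sham. The samples of a group were closer together on this scale than in CPM, and the difference was smaller, at -0.43 on the log2 scale, without overlap. Gdnf per 1000 CPM of satellite glia markers was 1.06, 1.06 and 2.0 after PRATA and 4.49, 3.18 and 3.92 after sham, lower by 1.54 on the log2 scale and without overlap. Both genes were also lower without overlap per 1000 CPM of neuron markers, a scale on which genes in general lay lower. The share of all genes without overlap per satellite glia marker level was not counted.

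Per 1000 CPM of sensory neuron markers, Bdnf, Ntrk3, Ngfr, Ret and Gfra3 all overlapped between the groups. Ngfr was at 47.9, 46.8 and 45.2 after PRATA and 48.4, 41.5 and 38.1 after sham, and Bdnf at 2.95, 3.06 and 2.66 after PRATA and 2.96, 1.96 and 2.18 after sham. For Bdnf, sham replicate 1 lay among the PRATA samples on this scale and the other 2 sham samples lay below them. Gfra2, which overlapped in CPM, did not overlap per neuron marker level: it was at 6.31, 7.13 and 7.14 after PRATA and 10.5, 9.46 and 8.58 after sham, lower after PRATA by 0.47 on the log2 scale. Genes in general lay lower on such a scale. With samples centred on the neuron markers, the log2 fold change was -0.41 for Gfra2, beside a median of -0.53 over all genes. The share of all genes without overlap per neuron marker level was not counted. Which of these scales fits each gene depends on the cells that express it, and the counts do not tell this.

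**Figure D2:**
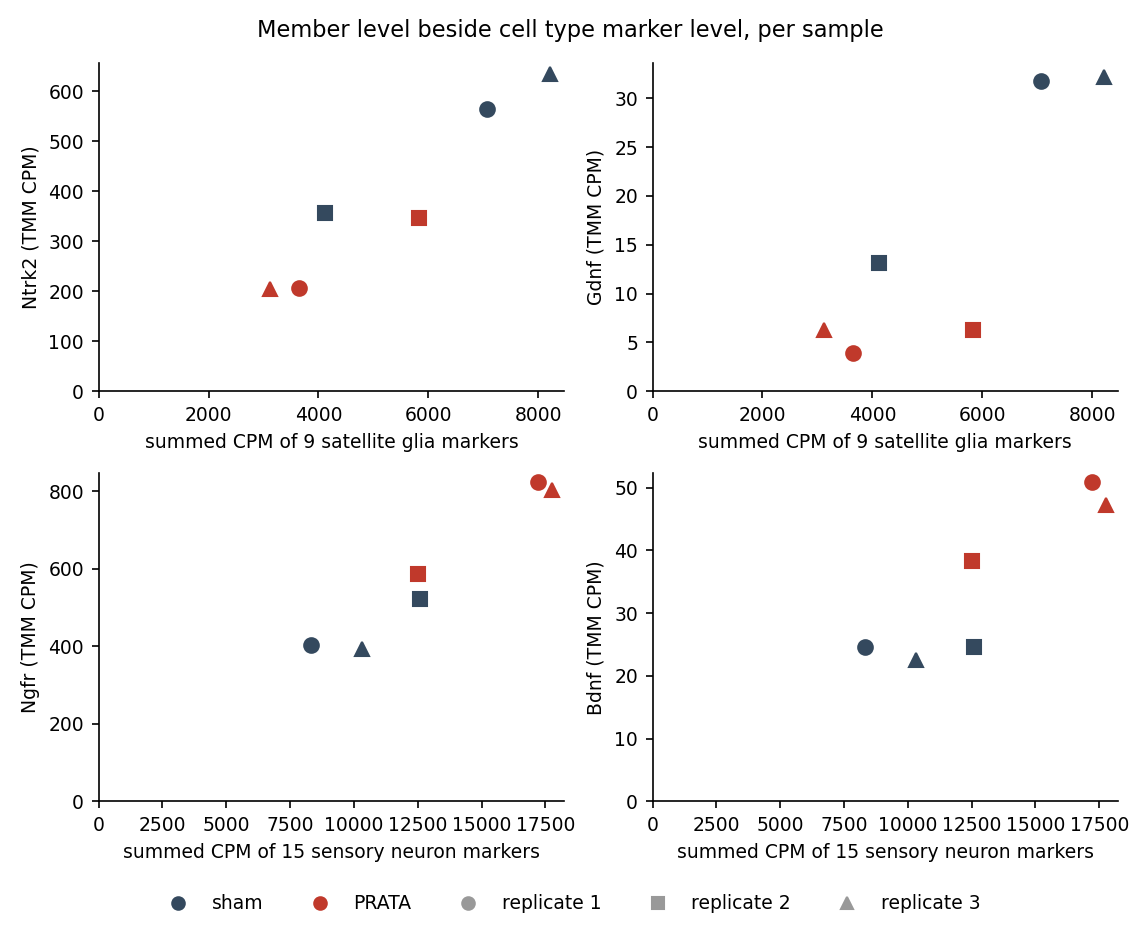
Level of a member in each sample (vertical axis, TMM-normalized CPM) against the summed CPM of a marker list in the same sample (horizontal axis), with Ntrk2 and Gdnf beside 9 satellite glia markers and Ngfr and Bdnf beside 15 sensory neuron markers. Gdnf lies at 3.87 to 6.25 CPM in the 3 PRATA samples and at 13.1 CPM in sham replicate 2, the lowest sham sample. The glial sums of the 2 groups overlap, as do the neuron sums, and the part of cell composition was not tested.

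The same contrast in the model gave like values. With each sample centred on its mean log2 CPM of the neuron markers, the median log2 fold change of all genes moved to -0.53, and the members stood at 0.35 for Bdnf, 0.08 for Ntrk3, 0.19 for Ngfr, -0.072 for Ret, -0.41 for Gfra2, 0.20 for Gfra3, -1.59 for Ntrk2 and -2.83 for Gdnf. Of the members, Gdnf and Ntrk2 alone had an unadjusted p under 0.05 there. Over all genes tested, 4756 of 14919 passed by that rule in this fit, against 2734 in the main fit. Ret and Gfra2 turned in direction but lay above the median, and the other 4 stayed above both 0 and the median. Centred on the satellite glia markers, a scale chosen after seeing the data, the median of all genes moved to 0.63, Ntrk2 was at -0.45 with an unadjusted edgeR p of 0.348, and Gdnf was at -1.54. On every one of these scales Gdnf and Ntrk2 lay below, and Bdnf, Ntrk3, Ngfr and Gfra3 above, the median of all genes. In the 4 libraries of the larger 7SL group alone, Bdnf was at 0.91, Ntrk3 at 0.79, Gfra3 at 0.81 and Gdnf at -2.17, while Ntrk2 at -0.86 and Ngfr at 0.62 had unadjusted edgeR p-values of 0.0549 and 0.0690.

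**Figure D3:**
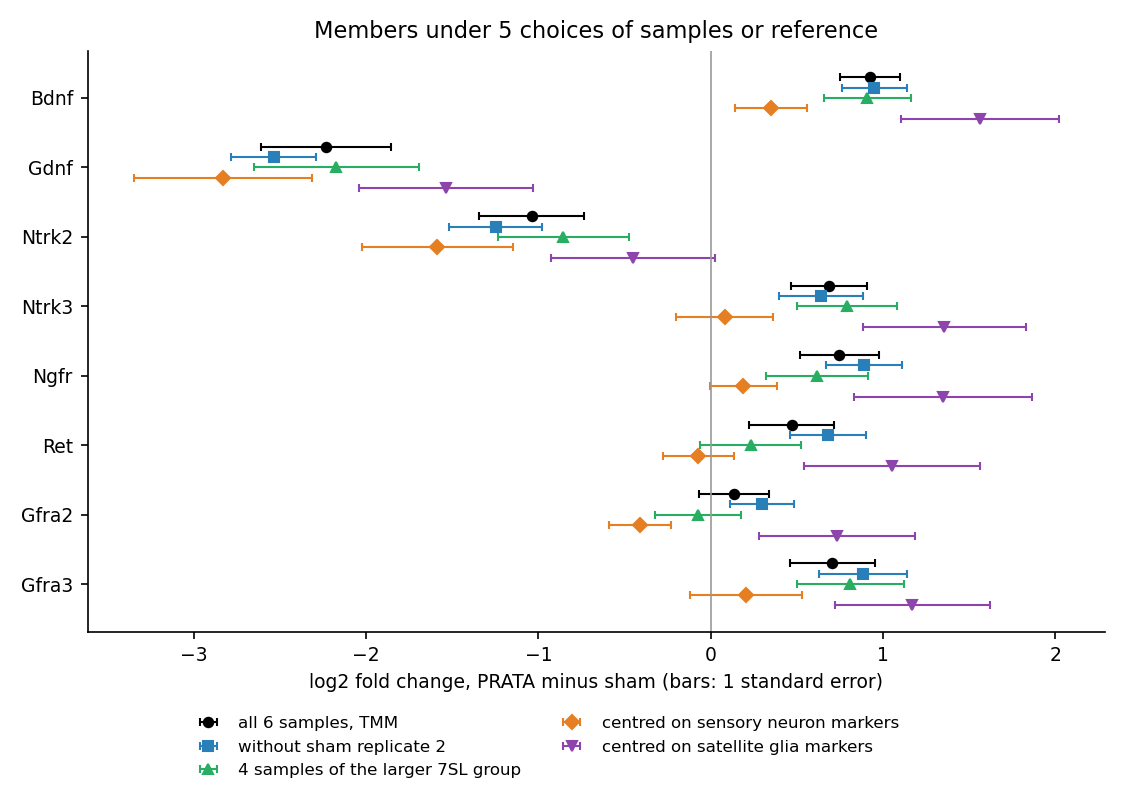
Log2 fold change of each member, PRATA minus sham (horizontal axis), with bars of 1 standard error, in all 6 samples, without sham replicate 2, in the 4 samples of the larger 7SL group, and centred on either marker list. Gdnf and Ntrk2 lie below 0 at every choice, Bdnf, Ntrk3, Ngfr and Gfra3 lie above 0, and Ret and Gfra2 cross 0.

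Around the members, 136 genes of 9 lists for the same pathways and neuron classes were tested. Of these, 20 were higher and 4 lower at an unadjusted p under 0.05, with a median log2 fold change of 0.14. Over all genes tested, 8.19% were higher and 10.1% lower by this rule, with a median of 0.02. The counts per list below stand beside these shares, and no list was tested as a set. Of 6 other ligands listed, 1 was tested. Gdf15, a divergent ligand of RET complexes, was at 8.81 ± 2.29 CPM after PRATA and 12 ± 1.88 CPM after sham (SD, n = 3) and did not pass. The other 5 ligands had few reads over the 6 libraries: Ntf3 had 16 counts, Ntf4 42, Nrtn 26, Artn 16 and Pspn 51, so that a difference was not detectable at this depth.

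Of 15 other receptors and co-receptors tested, 2 were higher, none was lower at an unadjusted p under 0.05, and the median log2 fold change was 0.26. Sorcs3, a sortilin-related receptor, was at 21.4 ± 3.43 against 14.8 ± 1.41 CPM, and Islr2, a membrane protein that interacts with Trk receptors, at 12.4 ± 3.53 against 7.77 ± 1.08 CPM (SD, n = 3). Among 12 genes for neurotrophin processing and packaging, 2 were higher at that p, Hap1 at 0.55 and the proprotein convertase gene Pcsk6 at 0.56 on the log2 scale. The median was -0.02.

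Of the 46 adaptors and kinases downstream of Trk and RET, 3 were higher and 1 was lower at an unadjusted p under 0.05. Their median log2 fold change was -0.03. Plcg1, the phospholipase recruited by Trk receptors, was higher at 0.67, Dok5, an adaptor that RET phosphorylates, at 0.51, and Shc2 at 0.49, whereas Grb10 was lower at -0.64. Among 18 intracellular partners and proteases of p75NTR, Psen2, a gamma-secretase subunit gene, was higher at 0.48 and Maged1 at 0.50. Adam17, which encodes a sheddase that cleaves p75NTR, was lower at -0.89: its level was 55.1, 61.6 and 49.4 CPM after PRATA and 111, 59.2 and 138 CPM after sham, so sham replicate 2 lay among the PRATA samples. All of these had an unadjusted p under 0.05 and an edgeR adjusted p over 0.05.

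Of 17 tested genes that neurotrophins induce, 4 were higher and 1 was lower at an unadjusted p under 0.05. The median log2 fold change was 0.55. Vgf, which encodes a secreted neuropeptide precursor, was at 172, 183 and 212 CPM after PRATA and 81.7, 104 and 79.8 CPM after sham, a log2 fold change of 1.10 (SE 0.18, unadjusted p = 0.000289, edgeR adjusted p = 0.156). The immediate early genes Fos and Fosb were at 1.56 and 2.1 on the log2 scale, and Fosb ranged from 178 to 601 CPM after PRATA and from 32.4 to 209 CPM after sham. Spry2, a feedback inhibitor of receptor tyrosine kinases, was at -0.96, with sham replicate 2 among the PRATA samples. These genes also respond to stimuli other than neurotrophins.

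By neuron class, 4 of 8 peptidergic nociceptor markers were higher and none lower at an unadjusted p under 0.05. All 8 were higher by sign, with a median log2 fold change of 0.77. Adcyap1, which encodes the peptide PACAP, was at 107 ± 17.5 against 47.1 ± 17.5 CPM and Calca, the CGRP gene, at 604 ± 88.1 against 334 ± 95.5 CPM (SD, n = 3). Calcb was higher by 0.69 and Cartpt by 1.04 on the log2 scale. Of 8 markers of non-peptidergic nociceptors and C-LTMRs, the low-threshold mechanoreceptors with C fibers, none was higher at that p and Runx1 was lower at -0.79. By sign 6 were higher and 2 lower, with a median of 0.08. Runx1, a transcription factor of the non-peptidergic lineage, was at 70.9, 87.8 and 77.4 CPM after PRATA and 169, 92.6 and 146 CPM after sham. Of 11 markers of large-diameter neurons, Maf (0.73), Kcna1 (0.60) and Whrn (0.47) were higher and none was lower at that p. By sign 10 were higher and 1 lower, with a median of 0.46. For comparison, the median of the 15 general sensory neuron markers was also 0.46.

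**Figure D4:**
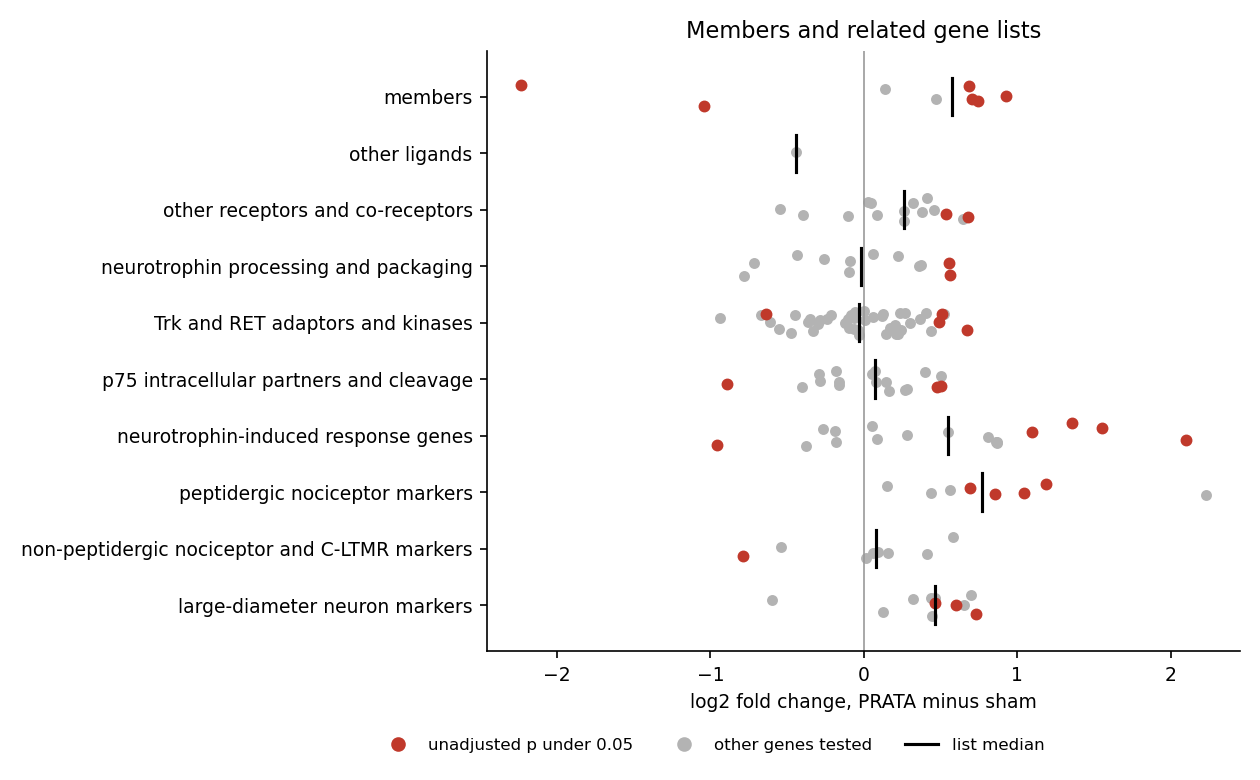
Log2 fold change, PRATA minus sham (horizontal axis), of every gene tested in the members and 9 related lists (rows), with genes at an unadjusted p under 0.05 in red and a black line at each list's median. The medians run from -0.44 for the other ligand tested, Gdf15, to 0.77 for the peptidergic markers, and Gdnf at -2.23 is the lowest point.

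The genes whose levels followed each member most closely were found among 13904 protein-coding genes by the root mean square difference of centred log2 CPM over the 6 samples. For Bdnf these were Gpr162 (0.080) and AC141959.1 (0.096), for Gdnf Timp3 (0.13) and Eps8 (0.20), for Ntrk2 Homer3 (0.082) and Limd1 (0.083), and for Ntrk3 Mgll (0.087) and Sync (0.094). For Ngfr they were Diras1 (0.052) and Prkce (0.055), for Ret Kcnc4 (0.037) and Dnajc6 (0.040), for Gfra2 Gskip (0.034) and Fech (0.051), and for Gfra3 Mboat1 (0.078) and Trerf1 (0.093). Between members, the closest pair was Bdnf and Ngfr, at 0.14. Among the 13904 genes, Ngfr ranked 54 in closeness to Bdnf, and Bdnf ranked 254 in closeness to Ngfr. Gdnf and Ntrk2 were each other's nearest member, at 0.55. As no other member was lower after PRATA, this is no further result. Ntrk2 ranked 161 in closeness to Gdnf, and Gdnf ranked 3457 in closeness to Ntrk2. For Gdnf the profile most like it lay farther away than for any other member, but genes in general did so too. The median distance to all these genes was 1.14 for Gdnf and 0.35 (Gfra2) to 0.71 (Ntrk2) for the other members.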

How the data were processed

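RNA of isolated L1-L2 DRG neurons was sequenced from 3 PRATA and 3 sham SHRs with a stranded total RNA kit and ribosomal depletion. The deposited table holds the authors' raw counts per gene without normalization, and all its sample columns were used. The submitters' processing notes name STAR 2.7.3a, RSEM and DESeq2, whereas the paper's methods name other tools for FPKM values, and which of them made the counts, the strand setting, the build and the annotation are not given in the sources used here. Depth per sample ranged from 5892967 to 15226952 counts, and floors of 3 counts cover counting error only.

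The analysis used R 4.3.3, edgeR 4.0.16 (filterByExpr, minimum count 10, minimum total 15; TMM; quasi-likelihood test of PRATA against sham, two-sided, no covariate; Benjamini-Hochberg over 14919 genes), limma 3.58.1 and DESeq2 1.42.0. CPM values are TMM-normalized, and likeness used log2(CPM + 1). Single values were also compared by an exact permutation test. Fits were tested on simulated data. Figures used Python 3.11.15 and matplotlib 3.10.9. No gene lengths were used, so a ratio of the counts of 2 genes is compared between samples and not read as a difference in level between the genes.

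The members, lists and tests were chosen with earlier results of these data known. All 8 members are named, as are at most 4 genes per list, those with an unadjusted p under 0.05 or else the smallest p, and the 2 nearest profiles per member. Of the names in the pathway lists, 3 of 20 other receptors, 1 of 47 adaptors and kinases and 1 of 12 large-diameter neuron markers did not match. Some genes of the ligand and receptor lists are not reported here and were left out of the list counts. Alternatives were other scalings, filters and tools, a replicate block, the 7SL group as a covariate or a restriction to 4 samples, protein-coding genes alone, centring on marker lists, and each sample left out in turn. Same-numbered samples were not treated as pairs.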

Additional observations from a re-analysis of the deposited data

How the results depend on the processing

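Over 20 alternatives, Bdnf, Gdnf, Ntrk2, Ntrk3, Ngfr and Gfra3 kept their direction. Ret turned to -0.072 when centred on neuron markers, and Gfra2 to -0.41 there and to -0.074 in the 4 samples of the larger 7SL group. The number of members with an adjusted p under 0.05 was 0 in edgeR and 4 in DESeq2 and in voom with quality weights, where the adjusted p was 0.00323 and 0.0315 for Bdnf, 2.23e-05 and 0.0315 for Gdnf, 0.0210 and 0.0342 for Ntrk2, and 0.0288 and 0.0360 for Ngfr. It was 0 to 2 with each sample left out, and 2 without sham replicate 2, where 721 of all 15438 genes tested passed. Members past both an unadjusted p of 0.05 and an absolute log2 value of 1 numbered 1 in those 4 samples and 1 to 3 with each sample left out (3 without PRATA replicate 2). In the main fit 4.4% of all genes passed both. Their share in these other fits was not counted, so these member counts cannot be set against it. At an unadjusted p under 0.05, 4 members passed without PRATA replicate 1 or without sham replicate 3, and 7 passed without sham replicate 2. Over all genes tested, 1406, 1471 and 4254 passed in these 3 fits, against 2734 in the main fit. Of the 136 list genes, 20 were higher, against 12 with library size alone and 8 to 33 with each sample left out (11 without PRATA replicate 1, 33 without sham replicate 2, 8 without sham replicate 3), and 4 were lower, against 2 to 12 (7 without PRATA replicate 2, 12 without sham replicate 2, 2 without sham replicate 3). The cause of these shifts was not tested.

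As a check of pairing, PRATA and sham samples of the same number deviated from their groups with correlations of -0.39, -0.10 and -0.36 across genes, so the numbers were not taken as pairs. With the replicate block, no member had an adjusted p under 0.05, and neither did any other gene. Ngfr had an unadjusted edgeR p of 0.0531, 2 members passed both thresholds, and 9 list genes were higher. Over all genes tested, 1528 of 14919 had an unadjusted p under 0.05 in that fit, against 2734 in the main fit. How many of all genes passed both thresholds there was not counted. Gdnf, the member with the fewest reads, had 30 counts in PRATA replicate 1 and 84 in sham replicate 2, which limits its precision.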
